A study of Mus musculus with 12 samples.

Results

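The genes described here make, modify and sense oxysterols, the hydroxylated forms of cholesterol, and comprise the cholesterol hydroxylase gene Ch25h, the oxysterol enzyme genes Cyp27a1, Cyp7b1 and Hsd3b7, and the receptor gene Gpr183. They are 5 of 17097 genes with a probe set that names a single gene, and each is followed through its brightest such probe set, judged on the average of 12 Affymetrix mouse arrays. Ch25h was chosen because its in-sphere difference had been seen to be large, so that difference is given as a description with no test. The arrays form 4 groups of 3. They are macrophages recovered from neuroblastoma spheres at 48 h, macrophages of those cultures that stayed outside the spheres at 48 h, and the same pair at 24 h. The macrophages were derived from bone marrow of C57BL/6 mice and the spheres were grown on agar from TT9423, a mouse neuroblastoma cell line, which is the only tumour line in the study. In-sphere cells were released by enzymes and selected on CD11b columns, while the handling of the outside cells is not given separately in the labels, so compartment and preparation cannot be told apart. Titles and the time label give 24 h and 48 h, whereas the protocol text on every sample describes 24 h of co-culture. Per the series' design text, the wells of a culture were pooled and every replicate was an independent experiment, so p-values measure the spread between experiments.

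Oxysterols act both as signals inside the cell and as messengers between cells. The enzyme encoded by Ch25h adds a hydroxyl group to the side chain of cholesterol and is known as a gene that macrophages induce on Toll-like receptor and interferon signalling, while mitochondrial Cyp27a1 makes another side-chain oxysterol. Cyp7b1 adds a further hydroxyl to these products, which yields the ligand of the chemotactic receptor Gpr183 (also called EBI2), known for positioning B cells, dendritic cells and other leukocytes along the ligand's gradient. Hsd3b7 acts next and turns the ligand into an inactive steroid. Inside cells, oxysterols activate the LXR nuclear receptors, which switch on cholesterol export, and hold back SREBP processing through INSIG proteins, which lowers cholesterol synthesis.

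The stretches of DNA just upstream of the genes with the largest differences are shown first, since both Ch25h and Gpr183 were higher in spheres and Cyp27a1 was lower. They are RefSeq sequences of the GRCm38.p6 build, from 250 bases before the annotated start to the base before it, 5′ to 3′ on the strand of the gene. Capitals mark matches to the searched motifs.
Ch25h, chr19:34475149-34475398, minus strand: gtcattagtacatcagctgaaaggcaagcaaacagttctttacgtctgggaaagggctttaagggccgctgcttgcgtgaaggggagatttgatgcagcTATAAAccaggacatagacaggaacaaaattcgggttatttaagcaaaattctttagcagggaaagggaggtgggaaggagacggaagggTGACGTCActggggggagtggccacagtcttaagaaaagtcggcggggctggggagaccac
Gpr183, chr14:121965194-121965443, minus strand: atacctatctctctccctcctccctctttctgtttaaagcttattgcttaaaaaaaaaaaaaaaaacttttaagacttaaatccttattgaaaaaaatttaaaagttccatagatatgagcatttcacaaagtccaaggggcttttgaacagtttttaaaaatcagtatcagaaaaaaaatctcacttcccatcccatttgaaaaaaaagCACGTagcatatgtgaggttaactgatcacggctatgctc
Cyp27a1, chr1:74713285-74713534, plus strand: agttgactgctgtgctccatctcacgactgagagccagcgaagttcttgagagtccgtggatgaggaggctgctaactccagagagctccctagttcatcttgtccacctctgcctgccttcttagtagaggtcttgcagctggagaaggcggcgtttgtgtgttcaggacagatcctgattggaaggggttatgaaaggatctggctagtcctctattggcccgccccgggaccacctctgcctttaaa

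In this window Ch25h held 1 full cAMP response element, TGACGTCA, the palindrome read by CREB and ATF factors, at 61 to 54 bases before the start. That element occurred in 1.55% of 32851 windows of the same length. Ch25h also held TATAAA at 151 to 146 bases before the start, present in 12.4% of windows. Gpr183 held 1 hypoxia response core, ACGTG, on the opposite strand at 40 to 36 bases before the start, which 16.6% of windows hold. Both strands were also searched for the AP-1 site TGANTCA (6.75% of windows), the core of the interferon-stimulated response element, GAAA and GAAA with 2 bases between (2.98%), the NF-kB consensus (7.25%) and the LXR element, AGGTCA and AGGTCA with 4 bases between (0.0152%). Ch25h, Gpr183 and Cyp27a1 had 0 matches to those 4 motifs within these windows, and Cyp27a1 had none to the other 3. The window of Hsd3b7, not printed, held 1 match to the NF-kB consensus at 189 to 180 bases before the start, and Cyp7b1 was not searched. A match describes letters and not binding, and the windows do not cover distal elements.

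As a check of the labels, macrophage markers were read on all arrays. On the log2 scale the macrophage surface receptor Adgre1 lay between 10.50 and 11.39, Itgam, which encodes CD11b, between 8.06 and 9.11, and the growth factor receptor Csf1r between 9.01 and 9.97. Of 14 macrophage markers 13 exceeded the filter level of 2.77, the 40th percentile of all values, on every array, and Cd163 did so on none. In spheres, 3 of the 13 were called higher and 4 lower at 48 h, and 2 higher and 3 lower at 24 h, by the test described with Gpr183. By that test 37.5% of all genes were called at 48 h and 29.4% at 24 h. Here and below, a gene that rose or fell was higher or lower in spheres than outside at the same time. Their summed linear signal was 26802 to 28383 in spheres and 28809 to 30404 outside at 48 h, and 24710 to 29578 in spheres and 26279 to 30207 outside at 24 h. Among them the efferocytosis receptor Mertk fell by 1.25 ± 0.15 at 48 h and by 0.91 ± 0.15 at 24 h, the lipopolysaccharide co-receptor Cd14 rose by 1.09 ± 0.13 and 0.54 ± 0.13, the mannose receptor Mrc1 rose by 1.05 ± 0.28 and 1.08 ± 0.28, and the Fc receptor Fcgr1 rose at 48 h (1.19 ± 0.40). Cd68, Tyrobp and Spi1 were also called lower at 48 h, and Tyrobp and Adgre1 at 24 h. Adgre1 differed by -0.43 ± 0.13 at 24 h (limma adjusted p = 0.0221) and by -0.34 ± 0.13 at 48 h (limma adjusted p = 0.0536). In-sphere replicate 3 at 48 h was unlike the rest: its log2 values averaged 4.06 over all probe sets, against 4.20 to 4.22 on the other arrays, and it had the lowest array weight, 0.235. The 48 h differences are therefore also given without it. Arrays of pure TT9423 cells were not analysed here, and the values do not say which cells of an in-sphere sample held a transcript.

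Ch25h was the oxysterol gene that differed most between the compartments. At 48 h its log2 values were 8.94, 8.25 and 8.28 in spheres, against 3.12, 3.27 and 3.47 outside. At 24 h they were 7.50, 7.71 and 8.11 in spheres, against 3.67, 3.26 and 3.09 outside. Every in-sphere array lay far above every outside array, with a gap of 4.79 at 48 h and 3.83 at 24 h between the nearest arrays. Arrays in spheres all lay above those outside for 20.7% of genes at 48 h and 22% at 24 h. The fitted log2 difference was 5.20 ± 0.22 (SE, n = 3 against 3) at 48 h, a ratio of 36.9 with a 95% interval of 26.5 to 51.3. At 24 h it was 4.43 ± 0.22, a ratio of 21.6 with an interval of 15.5 to 30.0. Among 12488 genes tested, these were the differences ranked 3 at 48 h and 5 at 24 h from the highest. Outside the spheres Ch25h exceeded the filter level on all 6 arrays, though by less than 1 log2 unit, and RMA compresses differences that involve signals this dim. In such bulk samples, a change in the number of cells that make a transcript and a change in the amount per cell cannot be told apart.

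**Figure D1:**
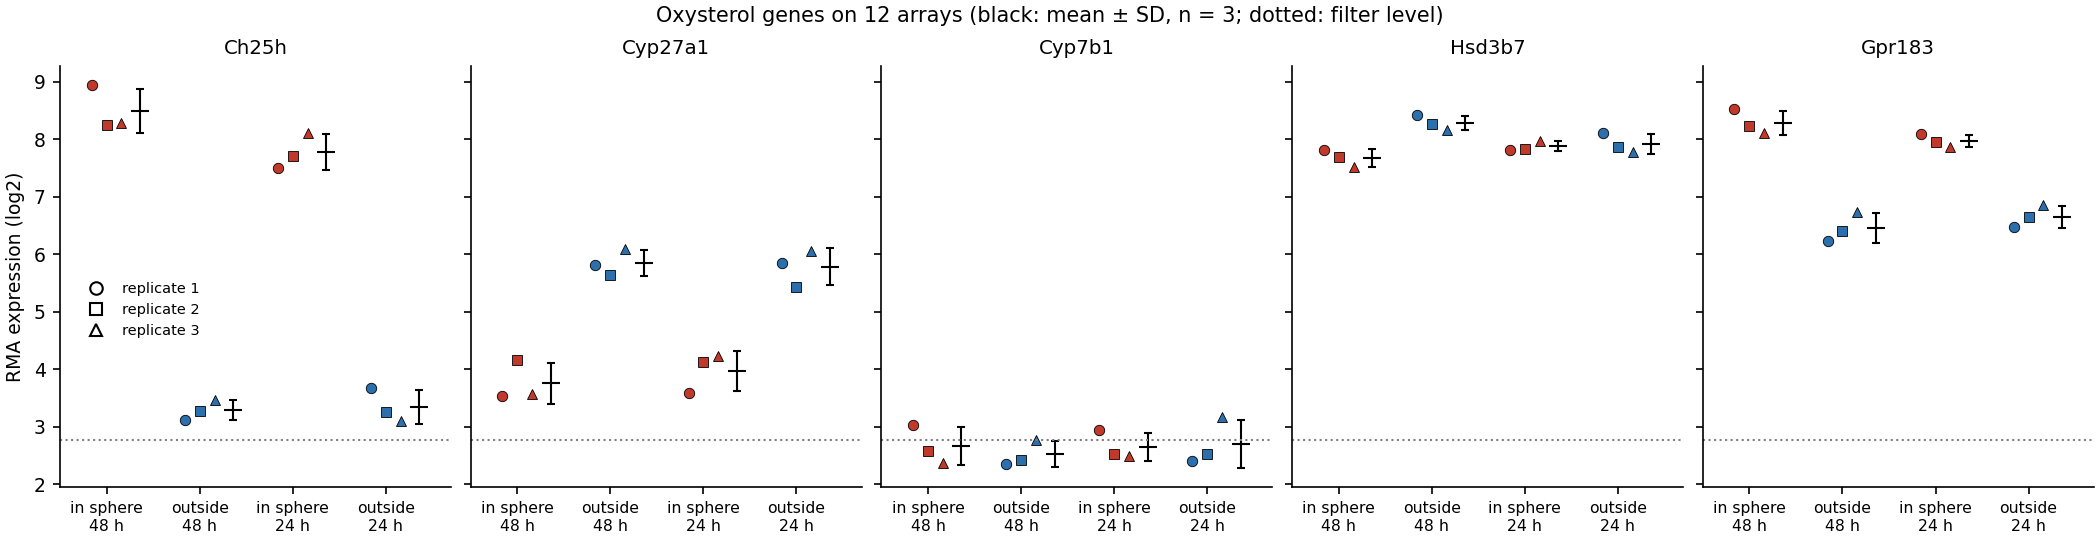
RMA log2 expression of the 5 oxysterol genes on each of the 12 arrays, by compartment and time, with replicate numbers as symbols, the mean ± SD of 3 arrays in black and the filter level of 2.77 dotted. Ch25h and Gpr183 lie higher in spheres, Cyp27a1 lies lower, Hsd3b7 is separated at 48 h alone, and Cyp7b1 stays near the filter level in every group.

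Within single experiments the Ch25h difference was large each time. Subtracting the outside array from the in-sphere array of the same replicate number gave 5.81, 4.98 and 4.82 at 48 h, and 3.83, 4.45 and 5.02 at 24 h. Replicate 1 thus had the largest difference of the experiments at 48 h and the smallest at 24 h. Without in-sphere replicate 3 at 48 h, the 48 h difference of Ch25h was 5.31.

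Gpr183, the receptor for the dihydroxylated ligand, rose in spheres at both times. At 48 h its log2 values were 8.52, 8.24 and 8.11 in spheres, against 6.22, 6.41 and 6.73 outside. At 24 h they were 8.09, 7.95 and 7.87 in spheres, against 6.47, 6.64 and 6.85 outside. The compartments did not overlap at either time, and the nearest arrays were 1.37 apart at 48 h and 1.02 apart at 24 h. The log2 difference was 1.83 ± 0.16 at 48 h, a ratio of 3.56 (limma adjusted p = 6.03e-06), and 1.31 ± 0.16 at 24 h, a ratio of 2.49 (limma adjusted p = 9.83e-05). All p-values here are limma's, adjusted by Benjamini-Hochberg over the 12488 genes tested, and a gene is called where that value is under 0.05. In-sphere replicate 1 was the highest and outside replicate 1 the lowest array at each time, so this experiment had the largest same-number differences, 2.29 at 48 h and 1.62 at 24 h. Without in-sphere replicate 3, the 48 h difference was 1.92.

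A dimmer probe set of Gpr183 gave the same direction with a smaller size. Its log2 values were 5.42, 5.46 and 4.70 in spheres at 48 h, against 3.96, 4.14 and 4.55 outside. At 24 h they were 5.48, 5.25 and 5.44 in spheres, against 4.42, 4.64 and 4.41 outside. Again no array of one compartment reached the other at either time, although in-sphere replicate 3 at 48 h came within 0.2 of the highest outside array. In a limma fit over 20235 probe sets its difference was 0.97 ± 0.21 at 48 h (adjusted p = 0.00306) and 0.90 ± 0.21 at 24 h (adjusted p = 0.00661).

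Cyp27a1, the mitochondrial sterol hydroxylase, fell in spheres at both times. Its log2 values at 48 h were 3.54, 4.17 and 3.57 in spheres, against 5.82, 5.64 and 6.09 outside. At 24 h they were 3.58, 4.13 and 4.22 in spheres, against 5.85, 5.44 and 6.06 outside. The highest in-sphere array lay 1.47 below the lowest outside array at 48 h and 1.22 below it at 24 h. Arrays in spheres all lay below those outside for 31% of genes at 48 h and 21.5% at 24 h. The log2 difference was -2.09 ± 0.23 at 48 h, which is 4.25-fold lower (limma adjusted p = 2.73e-05), and -1.81 ± 0.23 at 24 h, which is 3.50-fold lower (limma adjusted p = 1.25e-04). Without in-sphere replicate 3, the 48 h difference was -1.99. The side-chain hydroxylases Ch25h and Cyp27a1 stood on opposite sides of 0 at both times.

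Cyp7b1, which converts the products of both hydroxylases to the Gpr183 ligand, was close to the lower end of the measurable range everywhere. Its brightest probe set read 3.04, 2.58 and 2.38 in spheres at 48 h, against 2.36, 2.43 and 2.78 outside. At 24 h it read 2.94, 2.53 and 2.49 in spheres, against 2.40, 2.53 and 3.17 outside. The compartments overlapped at both times, and 1 of 3 arrays in each group exceeded the filter level, so the gene was tested only through these 4 scattered arrays. The log2 difference was 0.14 ± 0.23 at 48 h (adjusted p = 0.659, 95% interval -0.35 to 0.64) and -0.049 ± 0.23 at 24 h (adjusted p = 0.907, 95% interval -0.54 to 0.44). Both other probe sets of Cyp7b1 stayed below the filter level on all 12 arrays, with group means between 1.97 and 2.13. No difference in Cyp7b1 was detected at this signal, where a fall could hardly be measured. This does not show that its level was equal. Without in-sphere replicate 3, the 48 h difference was 0.29.

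**Figure D2:**
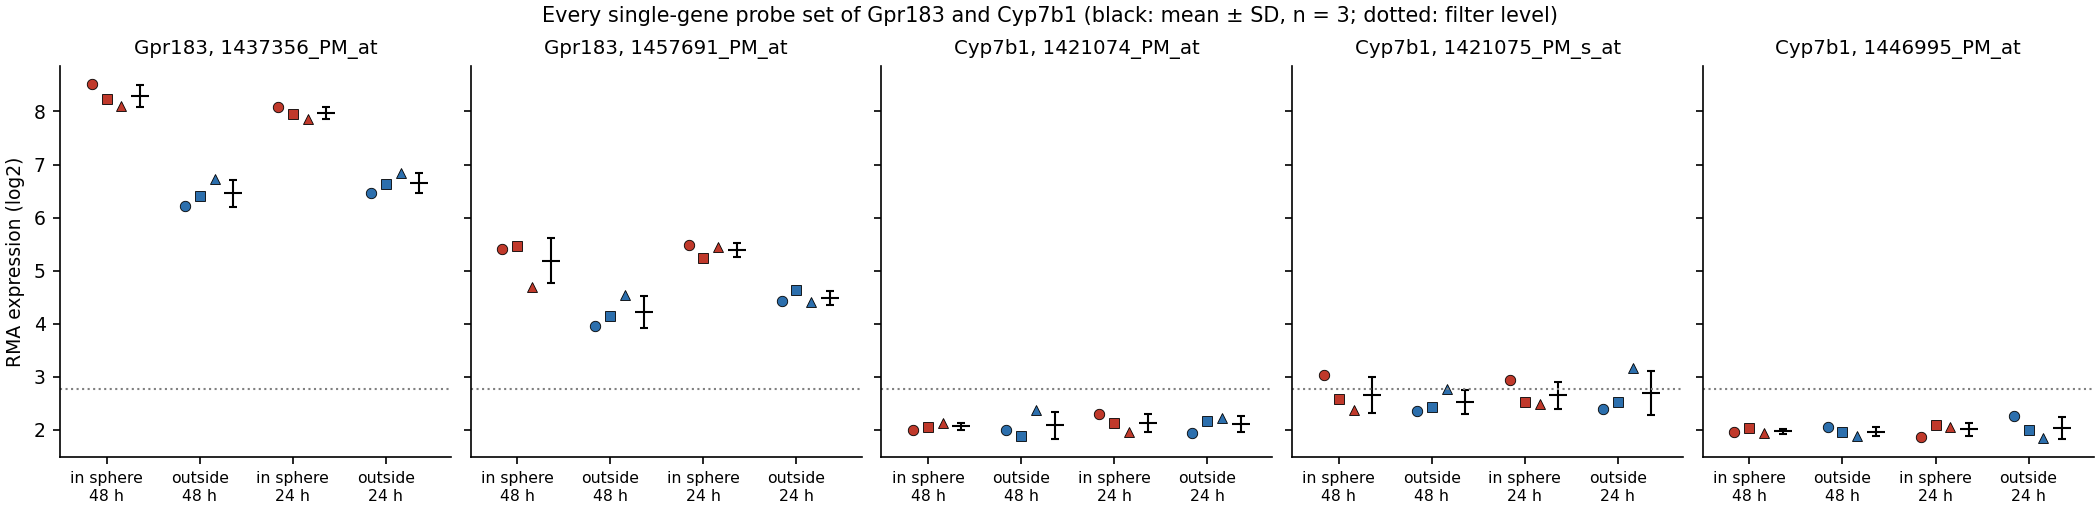
RMA log2 expression of both single-gene probe sets of Gpr183 and all 3 of Cyp7b1 on each array, by compartment and time, with circles, squares and triangles for replicates 1, 2 and 3, the mean ± SD of 3 arrays in black and the filter level of 2.77 dotted. Both Gpr183 probe sets separate the compartments, and the Cyp7b1 probe sets lie at or below the filter level on most arrays.

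Hsd3b7, the enzyme that inactivates the ligand, was well measured and was lower in spheres than outside at 48 h. Its log2 values there were 7.82, 7.69 and 7.51 in spheres, against 8.41, 8.26 and 8.17 outside. At 24 h they were 7.81, 7.84 and 7.98 in spheres, against 8.11, 7.86 and 7.77 outside. The compartments were 0.35 apart at 48 h and overlapped at 24 h. The log2 difference was -0.61 ± 0.13 at 48 h, which is 1.52-fold lower (limma adjusted p = 0.00281), and -0.038 ± 0.13 at 24 h (limma adjusted p = 0.867, 95% interval -0.32 to 0.24). Same-number differences at 48 h were close to one another, at -0.60, -0.57 and -0.65. Centring every array on the median of the tested genes moved all 48 h differences by 0.12 and left Hsd3b7 at -0.49 (limma adjusted p = 0.00974). Without in-sphere replicate 3, the 48 h difference was -0.53.

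At 48 h, 1 of the 4 tested oxysterol genes was called higher (Gpr183) and 2 lower (Cyp27a1 and Hsd3b7). Over all genes, 15.2% were called higher and 22.3% lower at that time, 37.5% in all, with a median log2 difference of -0.10. At 24 h, 1 of 4 was called higher (Gpr183) and 1 lower (Cyp27a1), beside 15.8% higher and 13.6% lower of all genes, 29.4% together, and a median of -0.0068. Groups did not overlap for 4 of the 5 genes at 48 h and 3 of 5 at 24 h, Ch25h included, beside 51.6% of all genes at 48 h and 43.4% at 24 h. With such shares, the number of called oxysterol genes is no result in itself.

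**Figure D3:**
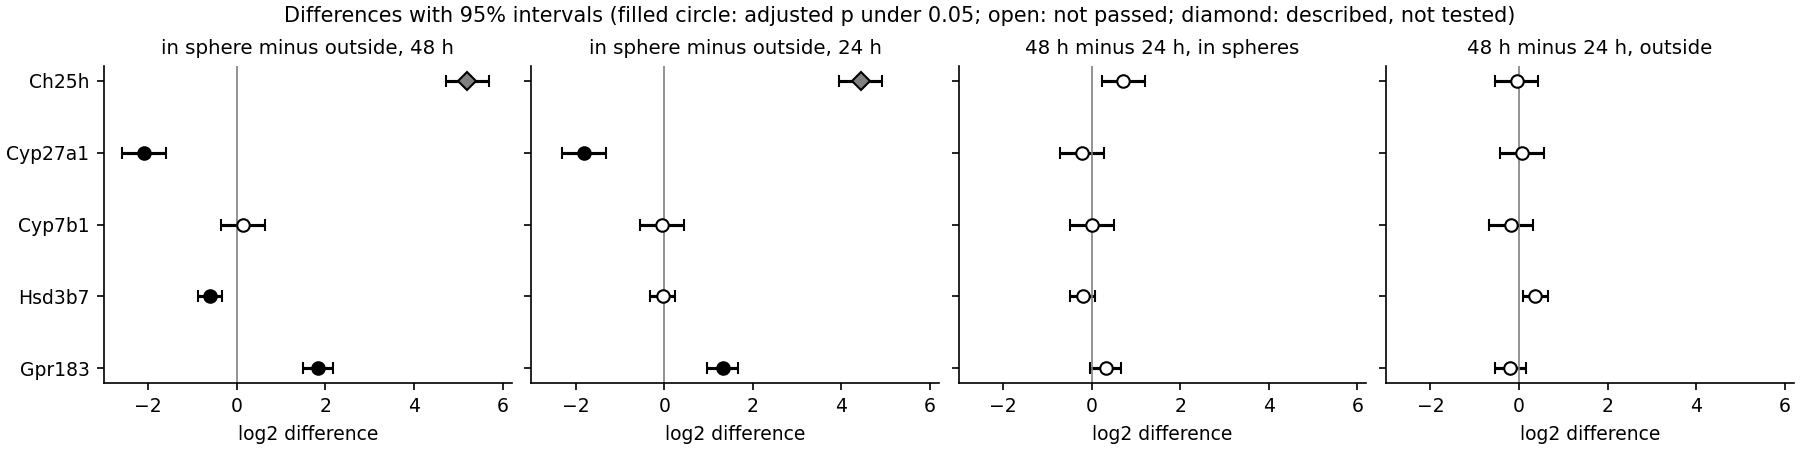
Log2 differences of the 5 oxysterol genes in 4 comparisons, with 95% intervals from the limma fit, filled circles for an adjusted p under 0.05 and diamonds for values described with no test. In-sphere differences are positive for Ch25h (5.20 at 48 h and 4.43 at 24 h) and Gpr183 and negative for Cyp27a1, while all 5 genes have open symbols, for an adjusted p above 0.05, in both comparisons of 48 h with 24 h.

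Between the times, none of the 5 oxysterol genes passed the test in either compartment. In spheres, the Ch25h arrays at 48 h all lay above those at 24 h, the nearest pair being 0.14 apart, and so did those of Gpr183, 0.018 apart. The 48 h arrays all lay above the 24 h arrays for 4.46% of all genes and below them for 9.3%, 13.8% in all. The Ch25h log2 difference, 48 h minus 24 h, was 0.72 ± 0.22 (limma adjusted p = 0.294, 95% interval 0.24 to 1.19). This rested unevenly on the experiments, since the same-number differences were 1.43, 0.55 and 0.17. For Gpr183 in spheres the difference was 0.32 ± 0.16 (adjusted p = 0.505), whereas its dimmer probe set gave -0.20 ± 0.21 (adjusted p = 0.758). The negative sign of that probe set came from in-sphere replicate 3 at 48 h, the array unlike the rest. It read 4.70 there, beside 5.42 and 5.46 on the other 48 h arrays and 5.48, 5.25 and 5.44 at 24 h. The arrays of the other 3 genes overlapped between times in spheres, with differences of -0.22 ± 0.23 for Cyp27a1 (adjusted p = 0.767), -0.20 ± 0.13 for Hsd3b7 (adjusted p = 0.594) and 0.012 ± 0.23 for Cyp7b1 (adjusted p = 0.990). In this comparison limma called 0 of 12488 genes (0% called), with 1341 at an unadjusted p under 0.05, 11 called with a trended, robust variance and 15 with the replicate number as a block.

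Outside the spheres, Hsd3b7 was the only oxysterol gene whose arrays did not overlap between times, at 8.41, 8.26 and 8.17 at 48 h, against 8.11, 7.86 and 7.77 at 24 h. Outside, the 48 h arrays all lay above the 24 h arrays for 13.4% of all genes and below them for 8.66%, 22.1% in all. The Hsd3b7 log2 difference was 0.37 ± 0.13 (limma adjusted p = 0.288), and the same-number differences were 0.31, 0.40 and 0.40. Ch25h outside differed by -0.056 ± 0.22 (adjusted p = 0.955, 95% interval -0.53 to 0.42) and Gpr183 by -0.20 ± 0.16 (adjusted p = 0.719). Cyp27a1 differed by 0.063 ± 0.23 (adjusted p = 0.952) and Cyp7b1 by -0.18 ± 0.23 (adjusted p = 0.838). Of all genes, 0.336% were called in this comparison, 0.112% higher and 0.224% lower, or 42 genes, and 158 with the replicate block.

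Whether the in-sphere differences themselves changed with time was tested as an interaction over the same arrays. It was 0.77 ± 0.31 for Ch25h (limma adjusted p = 0.343), 0.52 ± 0.23 for Gpr183 (adjusted p = 0.382) and -0.57 ± 0.18 for Hsd3b7 (adjusted p = 0.244). It was -0.28 ± 0.32 for Cyp27a1 (adjusted p = 0.767) and 0.19 ± 0.32 for Cyp7b1 (adjusted p = 0.847). That Hsd3b7 was called at 48 h and not at 24 h is thus not shown to be a difference between the times. Limma called 0 of 12488 genes (0% called) in this comparison, with 1534 at an unadjusted p under 0.05, 7 called with a trended, robust variance and 65 with the replicate block.

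Ordered by group mean, Ch25h ran from in spheres at 48 h (8.49 ± 0.39, mean ± SD, n = 3) and in spheres at 24 h (7.77 ± 0.31) to outside at 24 h (3.34 ± 0.30) and outside at 48 h (3.29 ± 0.17), and both outside groups overlapped. Gpr183 had the same order, at 8.29 ± 0.21, 7.97 ± 0.11, 6.65 ± 0.19 and 6.46 ± 0.26, with overlap of the outside groups. Cyp27a1 ran from outside at 48 h (5.85 ± 0.23) and outside at 24 h (5.78 ± 0.32) to in spheres at 24 h (3.98 ± 0.35) and in spheres at 48 h (3.76 ± 0.35), overlapping within each compartment. Hsd3b7 was highest outside at 48 h (8.28 ± 0.13), followed by outside at 24 h (7.91 ± 0.17), in spheres at 24 h (7.88 ± 0.088) and in spheres at 48 h (7.67 ± 0.15), where neighbours after the first overlapped. The group means of Cyp7b1, from 2.52 to 2.70, had no order beyond their spread.

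The genes whose pattern was most like that of Ch25h were found by the root-mean-square difference of mean-centred log2 values over the 12 arrays, a description in which the split between compartments carries most of the weight. They were the Notch-related protein gene Dlk1 (0.42), the Wnt antagonist Dkk2 (0.48), the mechanical-stress gene Ankrd1 (0.58), Nrn1, known as neuritin (0.59), and the interferon-inducible gene Ifi202b (0.60). Dlk1 had in-sphere differences of 4.99 at 48 h and 4.38 at 24 h, near those of Ch25h, and Ankrd1 had 5.27 at 48 h and 3.58 at 24 h. For Gpr183 the nearest were the teneurin gene Tenm4 (0.18), the tubulin gene Tubb5 (0.19), the replicative helicase subunit Mcm4 (0.19), the replication initiation factor Gins1 (0.20) and the transcription factor gene Twist2 (0.20). Their in-sphere differences lay between 1.62 and 1.93 at 48 h and between 1.29 and 1.42 at 24 h.

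Other enzymes of oxysterol and bile acid metabolism were in part too dim to test. Of 16 listed, 8 passed the filter, 6 were below it and the others were not analysed here, among the dim ones being the brain hydroxylase Cyp46a1 and the liver enzymes Cyp7a1 and Cyp8b1. At 48 h 1 was called higher and 3 lower, and at 24 h 0 were called higher and 3 lower. Over all genes, 37.5% were called at 48 h, 15.2% higher and 22.3% lower. At 24 h 29.4% were called, 15.8% higher and 13.6% lower. Beside such shares, these counts are no result in themselves. Hsd11b1, which interconverts oxidised and reduced steroids, fell by 1.98 ± 0.33 on the log2 scale at 48 h and by 1.82 ± 0.33 at 24 h. The peroxisomal enzyme Hsd17b4 fell by 0.91 ± 0.12 at 48 h and by 0.75 ± 0.12 at 24 h. Cyp39a1, an oxysterol hydroxylase, rose at 48 h (0.83 ± 0.22), the racemase Amacr fell by 0.50 ± 0.16 at 48 h, and the sterol carrier Scp2 fell by 0.42 ± 0.13 at 24 h.

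Receptors and sensors of oxysterols included the LXR gene Nr1h3, which was lower in spheres. Of 9 tested genes, 1 was called higher and 4 lower at 48 h, and 2 higher and 3 lower at 24 h. Beside the counts in this paragraph stand 37.5% of all genes called at 48 h and 29.4% at 24 h. Nr1h3 fell by 2.40 ± 0.22 at 48 h and by 1.02 ± 0.22 at 24 h, and its partner Rxra fell by 2.30 ± 0.24 at 48 h and by 1.41 ± 0.24 at 24 h. The lipid receptor S1pr2 fell by 1.30 ± 0.13 at 48 h and by 0.43 ± 0.13 at 24 h. Insig1, which retains SREBP when sterols are plentiful, rose by 0.58 ± 0.20 at 48 h and 0.59 ± 0.20 at 24 h, and Insig2 rose at 24 h (0.61 ± 0.12). Of 10 oxysterol-binding protein family genes, which carry sterols between membranes, 1 was called higher and 5 lower at 48 h, and 1 higher and 4 lower at 24 h. Osbpl3 rose by 1.04 ± 0.18 at 48 h and 1.19 ± 0.18 at 24 h, while Osbpl11 fell by 1.35 ± 0.17 at 48 h and by 1.13 ± 0.17 at 24 h and Osbpl2 by 0.89 ± 0.18 and 0.62 ± 0.18.

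Among 9 LXR target genes, 2 were called higher and 7 lower at 48 h, with a median log2 difference of -0.82, and 1 higher and 7 lower at 24 h, with a median of -0.79. For all counts in this paragraph, the shares over all genes were 15.2% higher and 22.3% lower at 48 h. At 24 h they were 15.8% higher and 13.6% lower. The cholesterol exporter Abcg1 fell by 1.75 ± 0.17 at 48 h and by 1.09 ± 0.17 at 24 h, the phospholipid transfer protein gene Pltp by 1.83 ± 0.26 and 0.79 ± 0.26, and Mylip, whose product degrades the LDL receptor, by 1.33 ± 0.15 and 1.00 ± 0.15. Smpdl3a, a secreted phosphodiesterase gene, fell by 1.05 ± 0.14 at 48 h and by 1.15 ± 0.14 at 24 h. The desaturase Scd1, which is also an SREBP target, rose by 3.36 ± 0.27 at 48 h and 2.70 ± 0.27 at 24 h. Apoc2 was the other LXR target called higher at 48 h (1.30 ± 0.25) and was not called at 24 h (0.20 ± 0.25). It is named after its values were seen. Of 17 cholesterol synthesis and uptake genes, 8 were called higher and 0 lower at 48 h (median 0.54), and 10 higher and 0 lower at 24 h (median 0.68). Fdps rose by 2.02 ± 0.19 at 48 h and 1.58 ± 0.19 at 24 h, Idi1 by 1.60 ± 0.14 and 1.02 ± 0.14, and Sqle by 1.25 ± 0.22 and 1.53 ± 0.22. The squalene synthase gene Fdft1 rose by 1.31 ± 0.19 at 48 h and 1.20 ± 0.19 at 24 h, and the sterol demethylase gene Cyp51 by 1.16 ± 0.21 and 1.52 ± 0.21. Of 7 cholesterol trafficking and ester genes, 1 was called higher and 4 lower at each time. The lipoprotein receptor Vldlr rose by 1.70 ± 0.26 at 48 h and 2.84 ± 0.26 at 24 h. The acid lipase Lipa fell by 1.84 ± 0.13 at 48 h and by 1.45 ± 0.13 at 24 h, the ester hydrolase Nceh1 by 1.67 ± 0.18 and 1.17 ± 0.18, and the scavenger receptor Cd36 by 1.33 ± 0.13 and 0.65 ± 0.13. All genes named as called in these lists had a limma adjusted p of at most 0.0407.

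**Figure D4:**
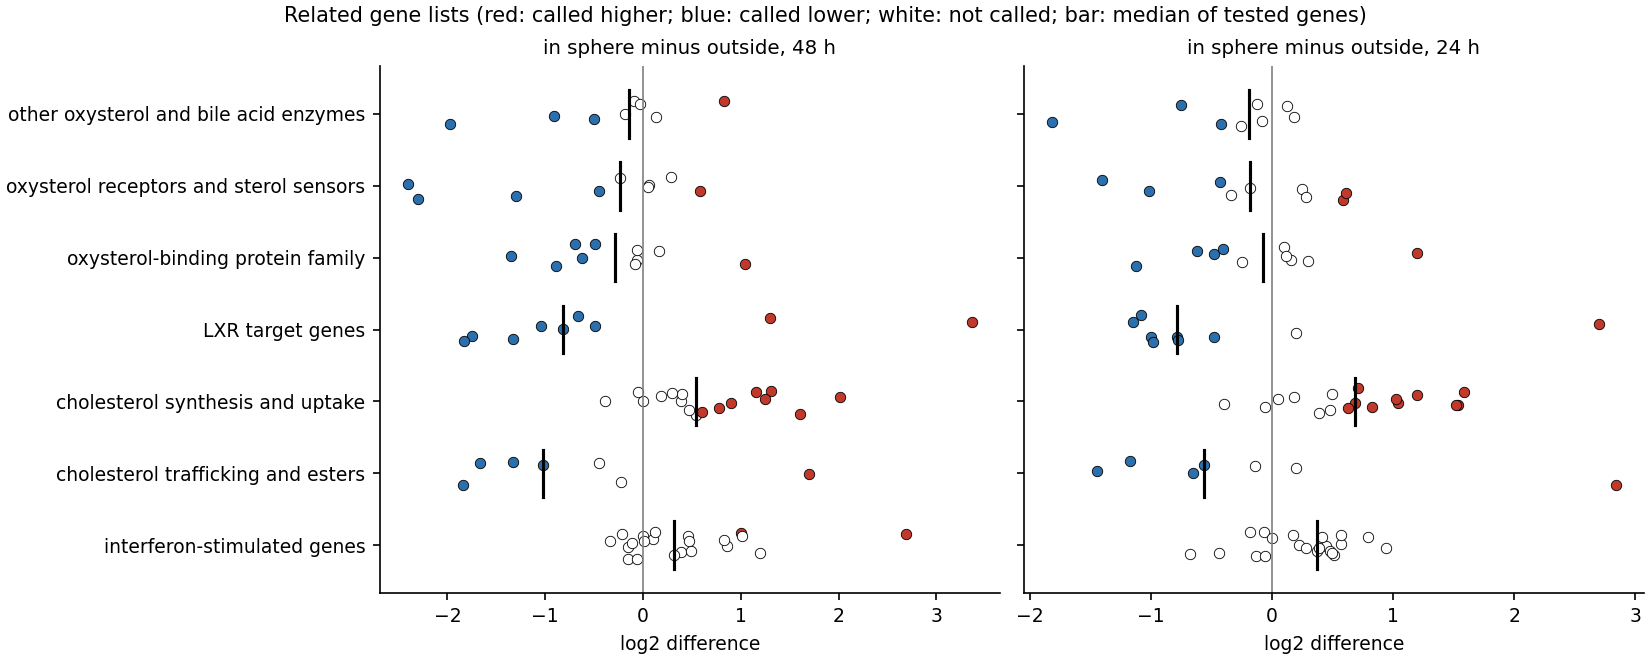
Log2 differences, in sphere minus outside, of every tested gene in 7 related lists at 48 h (left) and 24 h (right), with called genes in red or blue, others in white and the list median as a bar. LXR target genes lie mostly to the left and cholesterol synthesis genes mostly to the right, while few interferon-stimulated genes are coloured.

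Interferon-stimulated genes, a programme that Ch25h is known to belong to in macrophages, varied widely between arrays. Of 21 tested, 2 were called higher and 0 lower at 48 h, beside 37.5% of all genes called, with a median of 0.32 and 14 of 21 above 0. These were the chemokine Cxcl10 (2.69 ± 0.28, limma adjusted p = 2.15e-05) and Ifitm3 (1.00 ± 0.22, limma adjusted p = 0.00365). From 24 h to 48 h, Cxcl10 differed by -0.024 ± 0.28 in spheres (limma adjusted p = 0.984) and by -2.15 ± 0.28 outside (limma adjusted p = 0.0169). The in-sphere difference of Cxcl10 at 24 h was 0.57 ± 0.28 (limma adjusted p = 0.158). Since the interaction called 0 of 12488 genes, this difference is not shown to have changed between 24 h and 48 h. Between those times, 4 of 21 genes lay above 0 in spheres (median -0.42) and 0 of 21 outside (median -0.63). Medians over all genes were -0.069 in spheres and 0.031 outside. Limma called 0 of the 21 in spheres and only Cxcl10 outside, beside 0% and 0.336% of all genes. Such counts of signs are not a test. At 48 h other genes had differences near that of Ifitm3 with larger errors and did not pass. Examples were Mx1 (1.20 ± 0.66), Zbp1 (1.02 ± 0.51) and Usp18 (0.86 ± 0.47), chosen after their values were seen. At 24 h limma called 0 of 21, beside 29.4% of all genes, with a median of 0.37 and 15 of 21 above 0, and 2 had an unadjusted p under 0.05, Ifitm3 (0.49 ± 0.22, adjusted p = 0.118) and Irf9 (-0.44 ± 0.20, adjusted p = 0.120). With such errors, few calls do not show that these genes differed little. Atf3, which represses Ch25h in macrophages, differed by 0.025 ± 0.14 at 48 h (limma adjusted p = 0.908) and -0.39 ± 0.14 at 24 h (limma adjusted p = 0.0517).

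Markers of other cells differed between the compartments alongside these genes. Their part in the oxysterol differences was not tested. Among all genes, 15.2% were called higher and 22.3% lower at 48 h, and 15.8% higher and 13.6% lower at 24 h. Of 13 tested fibroblast and stromal markers, 7 were called higher and 3 lower at 48 h and 6 higher and 2 lower at 24 h. Their summed linear signal over 13 probe sets was 3607 to 4125 in spheres and 865 to 1263 outside at 48 h, and 3335 to 5277 in spheres and 918 to 1104 outside at 24 h. The collagen gene Col3a1 rose by 3.28 ± 0.31 at 48 h and 2.64 ± 0.31 at 24 h, the matrix proteoglycan gene Dcn by 2.98 ± 0.55 and 2.60 ± 0.55, and podoplanin (Pdpn) by 2.94 ± 0.44 and 3.76 ± 0.44. The growth factor receptor Pdgfra rose by 1.63 ± 0.35 and 1.90 ± 0.35, while another collagen gene, Col1a1, fell by 1.23 ± 0.21 and 0.60 ± 0.21. Of 13 tested neuroblastoma markers, 3 were called higher, 0 lower and 10 not called at 48 h. At 24 h, 2 were called higher, 0 lower and 11 not called. Their sums over 19 probe sets, in which bright genes weigh most, were 287 to 354 in spheres and 137 to 143 outside at 48 h. At 24 h the sums were 273 to 428 in spheres and 160 to 171 outside. Gap43, a growth cone gene, rose by 4.41 ± 0.30 at 48 h and 3.99 ± 0.30 at 24 h, the adhesion molecule Ncam1 by 1.64 ± 0.20 and 0.99 ± 0.20, and Elavl4 at 48 h (0.66 ± 0.11). The noradrenergic enzyme gene Th lay near the filter level in spheres and outside, with group means of 2.72 to 3.07, as did Dbh (3.11 to 3.47). Gata3, Chga, Tubb3 and Alk did not exceed it on any array.

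The counts of blood cell markers stand beside 37.5% of all genes called at 48 h and 29.4% at 24 h. Among these markers, 10 granulocyte genes had 1 called higher and 6 lower at 48 h and 0 higher and 6 lower at 24 h. Their summed signal was 12620.5 to 20168 in spheres and 34136 to 45653 outside at 48 h, and 18640.2 to 26159 in spheres and 41608 to 49745 outside at 24 h. The granule protein gene Ltf fell by 3.09 ± 0.32 at 48 h and by 1.95 ± 0.32 at 24 h, Camp by 2.99 ± 0.43 and 2.17 ± 0.43, and the receptor Csf3r by 2.54 ± 0.30 and 2.14 ± 0.30. Not all granulocyte genes fell, since 4 of 10 lay above 0 at each time, Prtn3, Mpo, Elane and Ctsg. Of these only Prtn3 was called, at 48 h (2.15 ± 0.32), and it is named after its value was seen. Of 5 dendritic cell markers, 1 was called higher and 1 lower at 48 h and 1 higher and 0 lower at 24 h. The sum over 6 probe sets was 710 to 886 in spheres and 144 to 296 outside at 48 h, and 658 to 1009 in spheres and 210 to 286 outside at 24 h. The only one called higher was Fscn1, an actin-bundling protein gene (2.25 ± 0.30 at 48 h and 1.90 ± 0.30 at 24 h), while the integrin Itgax fell by 1.03 ± 0.23 at 48 h. Flt3, Zbtb46 and Cd209a were not called at either time, and Xcr1 did not exceed the filter level on any array. The higher sum of dendritic cell markers in spheres thus rested mainly on Fscn1 and does not describe the whole list. Of 6 lymphocyte markers 1 was called at each time, Cd79b at 48 h (0.93 ± 0.23) and Ms4a1 at 24 h (-1.75 ± 0.50), and of 5 endothelial markers Vwf was called at both (-2.19 ± 0.29 at 48 h and -2.06 ± 0.29 at 24 h). For the actin control, the log2 signal at the 3' end less that at the 5' end, which grows as RNA degrades, was 0.405 ± 0.0114 in spheres and 0.386 ± 0.0134 outside at 48 h (mean ± SD, exact permutation p = 0.20, two-sided). It was 0.481 ± 0.127 in spheres and 0.285 ± 0.0535 outside at 24 h (exact permutation p = 0.10, two-sided, which is the lowest value possible with 3 arrays a group). For the Gapdh control it was 0.124 ± 0.0196 in spheres and 0.0794 ± 0.0235 outside at 48 h, with no overlap (exact permutation p = 0.10, two-sided, again the lowest possible). At 24 h it was 0.157 ± 0.275 in spheres and 0.0522 ± 0.108 outside (exact permutation p = 0.70, two-sided). The part of RNA quality in the oxysterol differences was not tested.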

How the data were processed

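Total RNA of 12 samples was labelled with a 3' IVT kit and hybridised to Affymetrix mouse arrays, per the labels' protocols. The authors deposited 1 log2 value per probe set and array, and the submitters' processing notes name RMA and Expression Console 1.1. RMA normalises arrays to one distribution and compresses dim signals. The log base was taken as 2 from the range of values, scanner files were not used here, and precision is limited by the number of arrays.

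Of 45141 probe sets, 28898 had 1 gene symbol, 551 several and 15692 none in the platform annotation. Where several probe sets named a gene, the brightest on average was kept, which gave 17097 genes, and 12488 genes above 2.77 (the 40th percentile) on at least 3 arrays were tested, all 5 oxysterol genes among them. A group-means model over all arrays was fitted with limma 3.58.1 (R 4.3.3), Benjamini-Hochberg adjustment over all tested genes and a threshold of 0.05. It was tested on simulated data. Errors of differences are its standard errors. Related genes without a single-gene probe set were not analysed here.

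The genes and lists were chosen with earlier results of these data known. Genes named beside the members are, per list and time, up to 4 called genes (3 for markers) with the largest differences or, with none called, the 2 of smallest p, together with fixed markers, Atf3 and the nearest patterns; any other is said to be chosen after its values were seen or is named without a value.

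For the same-number differences and the replicate block, replicate numbers were taken as pairing the arrays. Per the series' design text, each number is an independent experiment whose compartments shared cultures. The main fit held no such block, so its errors and p-values do not use the pairing. Same-number deviations from group means correlated at 0.0215 to 0.473, above 0.1 in 12 of 18 pairs. Correlations between the outside groups at 24 h and 48 h were 0.419 to 0.473. Those between the compartments at the same time were 0.0215 to 0.120. Alternatives were the replicate block, filters, probe set averaging, array weights, the samples fitted, the variance model, centring and leaving out each array.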

Additional observations from a re-analysis of the deposited data

How the results depend on the processing

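Each call of Gpr183 and Cyp27a1 at both times and of Hsd3b7 at 48 h kept its direction and its side of the threshold under all 20 alternatives. Across them Gpr183 ran from 1.40 to 1.97 at 48 h and from 1.11 to 1.41 at 24 h, Cyp27a1 from -2.29 to -1.96 and from -1.98 to -1.61, and Hsd3b7 at 48 h from -0.68 to -0.49 (limma adjusted p from 9.96e-04 to 0.0154). Ch25h ran from 4.98 to 5.32 at 48 h and from 4.26 to 4.60 at 24 h. The replicate block changed no call of an oxysterol gene, and the stricter filter removed Cyp7b1, as did averaging its probe sets.

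Differences that had not passed changed sign when 1 array was left out, within -0.042 to 0.29 for Cyp7b1 at 48 h (in-sphere replicate 1), -0.20 to 0.18 for Cyp7b1 at 24 h (in-sphere replicate 2 or 3, or outside replicate 3) and -0.11 to 0.058 for Hsd3b7 at 24 h (outside replicate 1). For 48 h minus 24 h the ranges were -0.17 to 0.16 for Cyp7b1 in spheres (24 h replicate 2 or 3, or 48 h replicate 1), and outside -0.33 to 0.054 for Cyp7b1 (24 h replicate 3), -0.18 to 0.11 for Ch25h (replicate 1 of either time) and -0.11 to 0.20 for Cyp27a1 (24 h replicate 2 or 48 h replicate 3). The interaction of Cyp7b1 ran from -0.041 to 0.34 (outside 24 h replicate 3).

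Counts of all called genes moved in the time comparisons, and the cause was not tested. For 48 h minus 24 h in spheres, 0 became 15 with the replicate block, 4 with no filter, 4 with the stricter filter, 9 with probe sets averaged, 115 with array weights, 11 with a trended robust variance, 12 with centring, and 0 to 10 with 1 array left out. Outside, 42 became 158 with the replicate block, 286 with array weights, 89 with a trended robust variance, 120 with centring, 1 with only those groups fitted, and 0 to 68 with 1 array left out, the 0 without outside replicate 3 at 24 h or outside replicate 1 at 48 h. For the interaction, 0 became 65 with the replicate block, 1 with probe sets averaged, 130 with array weights, 7 with a trended robust variance, 70 with centring, and 0 to 2 with 1 array left out. No oxysterol gene was called in these comparisons under any of these settings.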
